A study of Homo sapiens with 9 samples.

Results

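The genes described here are 10 transcripts of inflammatory signalling: the chemokines CXCL8, CXCL1, CXCL2, CXCL3 and CCL2, the cytokines IL6, IL1A, IL1B and LIF, and PTGS2, the inducible cyclooxygenase. They were chosen by name and read from the row whose identifier maps to each symbol. All 10 were found among 57820 gene identifiers, and all 10 passed the filter on low counts that left 18618 genes for testing. They were measured by RNA-seq in tumours grown in nude mice from A375, a human melanoma line with a BRAF mutation, engineered to express RNF4 from a doxycycline (Dox) switch. RNF4 is a ubiquitin ligase that recognises proteins carrying SUMO chains, and its RING domain is the part that recruits the ubiquitin-charged enzyme.

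Each of 3 groups held 3 libraries. RNF4 tumours with Dox carried the wild-type construct and the mice drank Dox from day 3. Tumours labelled RNF4 ring mutant with Dox carried a construct whose RING domain was altered, under the same Dox schedule. RNF4 tumours without Dox carried the wild-type construct in mice not given Dox, and serve as the baseline. Tumours expressing GFP, which the design text names as control for growth, are not analysed here. All tumours came from BRAF-mutant A375 cells and were collected at day 30, and per the study's design text each library pooled 2 tumours. Dox was not given to tumours lacking a construct, so Dox and the construct cannot be told apart where the Dox groups are set against the baseline. Nude mice lack T cells but keep neutrophils, macrophages and stroma, and the alignment is named only for the human genome, so the share of mouse reads was not tested. Libraries are called by the T number of their column in the count table.

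Total counts were 16416426 to 28934692 per library. The RNF4 level, counted over endogenous gene and construct together, was 380, 413 and 454 CPM (counts scaled to a common library size) in the RNF4 tumours with Dox, 47.0, 559 and 63.5 CPM in T3, T6 and T14, which carry the ring mutant label, and 33.4, 52.0 and 43.2 CPM without Dox (T1, T4, T12). T3 and T14 therefore lay close to the baseline level although their label names an induced construct. The libraries T1 and T2 stood apart from the other 7: the summed share of 85 ribosomal protein genes was 16.1% in T2 and 26.0% in T1, against 6.52% to 9.73% in the others. The melanoma markers SOX10 (39.0 to 80.9 CPM) and AXL (436 to 935 CPM) were present in every library, while the pigment genes MLANA (at most 1.88 CPM) and TYR (at most 1.48 CPM) were near 0. The 18 leukocyte and macrophage markers found summed to 118 to 162 CPM in RNF4 tumours with Dox, 125 to 235 CPM in those labelled ring mutant and 123 to 164 CPM without Dox, of which CD74, which tumour cells can also express, gave 51.9 to 113 CPM. LYZ, the lysozyme of myeloid cells, was highest in T1 (47.8 CPM) and T2 (45.6 CPM), against 7.61 to 29.03 CPM in the other 7. T1 and T2 both lay above the other 7 for 23.0% of all tested genes. TYROBP (3.83 CPM) and FCER1G (3.28 CPM) were also highest in T1. By contrast, ITGB2 (2.94 CPM), SPI1 (2.12 CPM) and CSF1R, the macrophage growth factor receptor (5.40 CPM), were lowest in T1. CSF1R was highest in T14 at 27.0 CPM. PTPRC, the pan-leukocyte marker, was lowest in T1 at 1.30 CPM and highest in T14 at 6.42 CPM. CD68 was at most 0.455 CPM. The 10 neutrophil markers summed to 9.10 CPM in T1 and to 2.40 to 4.27 CPM in the other 8 libraries. LTF, the only 1 of the 10 to pass the filter, gave 6.23 CPM of the sum in T1. LTF and S100A9 (1.505 CPM) were highest in T1, as were S100A8, FPR1 and ELANE at no more than 0.342 CPM. The share of all tested genes highest in T1 was 26.6%. MMP8 was lowest in T1 (0.137 CPM), and CXCR2 (0.568 CPM) and CSF3R (0.739 CPM) were highest in T14. FCGR3B was at 0 in all 9. Other host-type markers set other libraries apart: skeletal muscle markers summed to 218 CPM in T13 and 781 CPM in T14, against 14.5 to 108 CPM elsewhere. Fibroblast markers ranged between 841 CPM in T6 and 4482 CPM in T14, and keratinocyte markers were highest in T13 at 530 CPM. How far host, leukocyte or stromal RNA contributed to the values below was not tested, and in bulk tumours fewer cells of a type and less RNA per cell cannot be told apart.

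CXCL8, CXCL1, CXCL2 and CXCL3 attract neutrophils through the receptors CXCR1 and CXCR2, and CCL2 attracts monocytes through CCR2. IL-1 released by cells activates NF-kB in their neighbours, which in turn transcribes these chemokines, IL6 and PTGS2. Many such transcripts are short-lived because of AU-rich elements near their ends. Melanoma cells are known to secrete CXCL8 and CXCL1, and mice have no direct counterpart of CXCL8.

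CXCL8 lies at chr4:73740506-73743716 and CXCL1 at chr4:73869393-73871242, both on the plus strand of GRCh38 (GENCODE 29). CXCL3 at chr4:74036589-74038807 and CXCL2 at chr4:74097035-74099293 are on the minus strand of the same chromosome. The stretches before their start sites, with those of IL6 and PTGS2, are shown because the letters read as an NF-kB site differ between the members. Each is 130 bases upstream of the RefSeq start (GRCh38.p14), 5′ to 3′ in the direction of the gene. Capitals mark matches to GGNNTTTCC, a reduced kB pattern chosen after the sequences had been seen. The windows are chr4:73740439-73740568 on the plus strand, chr4:73869263-73869392 on the plus strand, chr4:74099196-74099325 on the minus strand, chr4:74038690-74038819 on the minus strand, chr7:22727070-22727199 on the plus strand and chr1:186680424-186680553 on the minus strand.
CXCL8: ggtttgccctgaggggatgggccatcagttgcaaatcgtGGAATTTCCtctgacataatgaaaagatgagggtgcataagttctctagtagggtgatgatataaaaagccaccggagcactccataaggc
CXCL1: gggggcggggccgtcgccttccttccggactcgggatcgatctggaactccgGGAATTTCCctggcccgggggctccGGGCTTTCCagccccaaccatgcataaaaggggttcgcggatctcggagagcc
CXCL2: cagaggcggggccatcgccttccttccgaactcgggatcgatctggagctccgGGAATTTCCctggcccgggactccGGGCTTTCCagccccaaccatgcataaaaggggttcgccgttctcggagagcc
CXCL3: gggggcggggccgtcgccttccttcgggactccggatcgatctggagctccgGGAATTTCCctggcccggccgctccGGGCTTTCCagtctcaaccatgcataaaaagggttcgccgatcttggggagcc
IL6: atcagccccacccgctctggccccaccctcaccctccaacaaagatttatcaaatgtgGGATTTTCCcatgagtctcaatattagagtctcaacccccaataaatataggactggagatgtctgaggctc
PTGS2: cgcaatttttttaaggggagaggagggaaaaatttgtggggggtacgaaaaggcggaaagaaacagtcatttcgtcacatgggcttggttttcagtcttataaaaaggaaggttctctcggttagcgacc

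The pattern GGNNTTTCC, searched on both strands in windows from 250 bases before to 50 after the start, was found in 5 of the 8 members with a promoter sequence (CXCL8, CXCL1, CXCL2, CXCL3 and IL6), against 5.48% of 35116 promoters. Its more specific form GGAATTTCC was in the 4 CXC chemokine promoters, against 0.413% of all promoters. GGNNTTTCC was chosen after the sequences had been seen, and GGAATTTCC is the form those 4 share. The shares therefore carry no test of enrichment. CXCL1, CXCL2 and CXCL3 are close copies: over 130 bases, CXCL1 and CXCL2 were identical at 92.4% of aligned columns and CXCL1 and CXCL3 at 91.5%, whereas CXCL8 and CXCL1 were identical at 46.7%. Their matches are thus not separate observations. PTGS2 held no match to GGNNTTTCC but held TATAAA, as did CXCL8 and IL1A (10.7% of all promoters), and TTGCNNAA, a C/EBP-type pattern it shared with CXCL2, IL1B and IL6 (9.05% of all promoters). TGANTCA, an AP-1 pattern, was found in CXCL8 and IL1A (6.57% of all promoters). In the longest annotated coding transcript, the AU-rich nonamer TTATTTATT occurred in 7 of 10 members, with 5 copies in CXCL2 and 3 in CXCL1, against 8.73% of 19669 transcripts with at least 1 copy. A match to a pattern is a description of letters and not of a bound site. A missing match to the reduced kB pattern, as in PTGS2, does not show that a site is absent.

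None of the 10 genes passed an adjusted p of 0.05 in any of the 3 comparisons (edgeR quasi-likelihood test over all 9 libraries, Benjamini-Hochberg over 18618 genes). The background was 0 of 18618 genes called in each comparison, or 0%, with 111, 251 and 325 genes at an unadjusted p under 0.05 for RNF4 with Dox against no Dox, RNF4 with Dox against the ring mutant label, and the ring mutant label against no Dox. DESeq2 called 3, 1 and 4 genes, and no member. In CPM, T1, an uninduced library, held the highest value of 8 of the 10 genes, against 26.6% of all tested genes. T4, another uninduced library, held the lowest of 4, against 13.5%. The ranking of T1 depends on scaling: its TMM factor was 0.726, which raises its CPM, against 0.891 to 1.08 in the others. By TPM (transcript abundance corrected for length and depth), T1 was highest for CXCL8, CXCL3 and PTGS2. CXCL1, CXCL2, IL6, IL1A and IL1B were then highest in other libraries, and LIF was lowest in T1 (39.4 TPM).

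**Figure D1:**
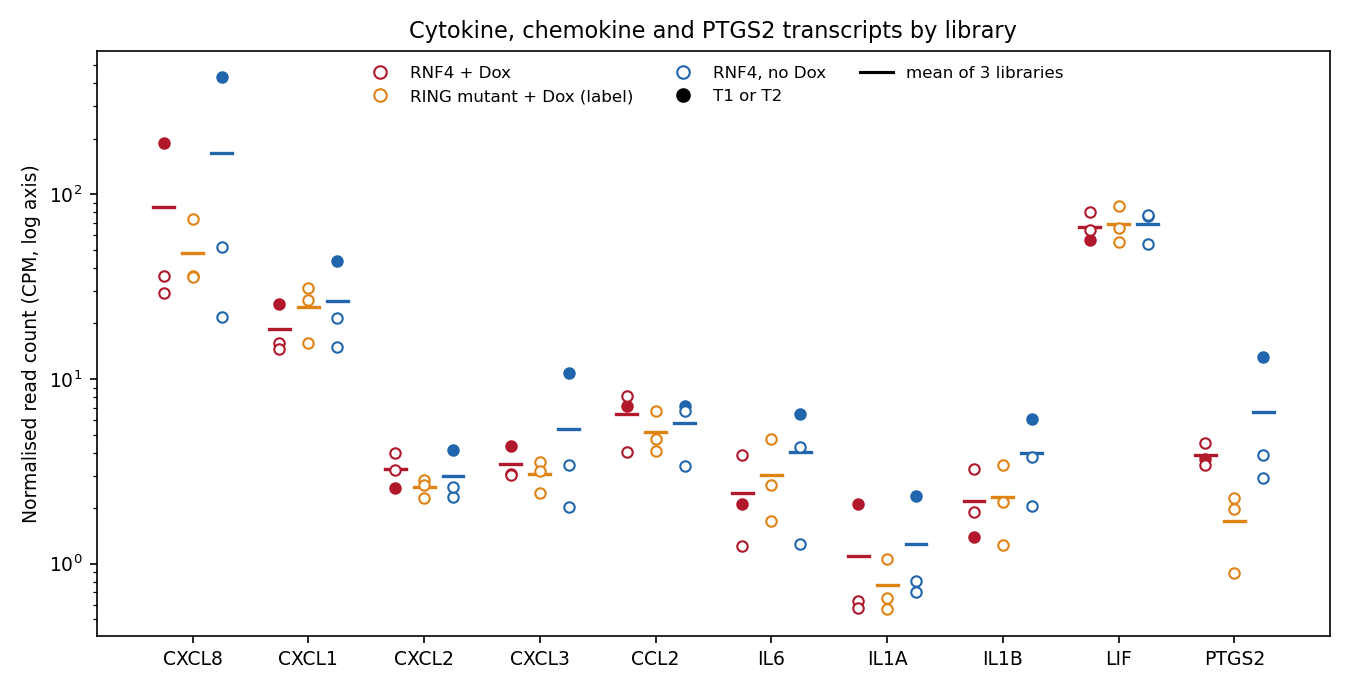
Normalised read count (CPM, log axis) of each gene in 9 libraries, 3 per group, with the group mean as a bar; filled points are T1 and T2. The filled points of CXCL8 lie at 189 and 431 CPM, above the other 7 libraries, while the 9 points of LIF lie between 53.8 and 86.7 CPM.

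CXCL8 (ENSG00000169429.6), which encodes the neutrophil chemokine interleukin-8, had the highest mean of the 10 per length, at 123 TPM (transcript abundance corrected for length and depth), with LIF at 60.2 TPM and CXCL1 at 59.3 TPM. T1 and T2 carried that mean: without them CXCL8 averaged 67.8 TPM, LIF 65.9 TPM and CXCL1 58.4 TPM. CXCL8 was the highest member in 4 libraries (T2, T3, T1 and T12), LIF in 4 (T5, T13, T6 and T4) and CXCL1 in T14. It had 189, 36.3 and 29.3 CPM in RNF4 tumours with Dox (T2, T5, T13), 73.2, 36.3 and 35.6 CPM in those labelled ring mutant (T3, T6, T14), and 431, 21.8 and 51.7 CPM without Dox (T1, T4, T12). T1 and T2 were the highest libraries although they belong to opposite arms, and all 3 groups overlapped. The highest library was 19.7 times the lowest, a ratio of at least 10 that 0.879% of 9903 genes with a mean of at least 10 CPM showed.

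The group means of CXCL8 were 85.0 ± 90.5 CPM in RNF4 tumours with Dox, 48.4 ± 21.5 CPM under the ring mutant label and 168 ± 228 CPM without Dox (SD, n = 3 each). The fitted log2 fold change was -0.98 ± 1.03 (SE) for RNF4 with Dox against no Dox, 0.81 ± 1.03 for RNF4 with Dox against the ring mutant label and -1.80 ± 1.05 for the ring mutant label against no Dox, with unadjusted p of 0.364, 0.448 and 0.120. These signs rested on single libraries. Without T1 the change was 1.24 for RNF4 with Dox against no Dox and 0.41 for the ring mutant label against no Dox, and without T2 it was -2.36 for RNF4 with Dox against no Dox and -0.56 for RNF4 with Dox against the ring mutant label. The authors' deposited table gives CXCL8 a log2 fold change of -1.825 for the ring mutant label against no Dox, with an unadjusted p of 0.0254 and an adjusted p of 0.999994.

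CXCL8 made up 64.2% of the summed CPM of the 10 genes in T2, 41.5% in T3 and 71.7% in T1, where it was the largest part. In the other 6 libraries it made up 20.7% to 29.4%, and LIF was the largest part at 43.9% to 56.6%. T1 and T2 are the libraries with the high ribosomal protein share. Of the 10 members, 3 (CXCL8, CXCL3 and IL1A) had both T1 and T2 above the other 7 libraries in CPM. That is close to the 23.0% of all tested genes, so this placement does not set the members apart. Over the 9 libraries the Pearson correlation of log2 CPM with the ribosomal protein share was 0.93 for CXCL8, 0.91 for CXCL3, 0.88 for IL1A, 0.40 to 0.69 for 6 others and 0.04 for LIF, a description in which T1 and T2 are the points that stand apart. The part of library composition in these values was not tested.

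CXCL1, which binds CXCR2, had 25.5, 15.8 and 14.6 CPM in RNF4 tumours with Dox, 26.7, 15.7 and 31.0 CPM under the ring mutant label and 43.4, 14.9 and 21.5 CPM without Dox. T1 was highest, T14 and T3 followed, and the groups overlapped. CXCL1 had a log2 fold change of -0.51 ± 0.42 for RNF4 with Dox against no Dox and -0.39 ± 0.41 against the ring mutant label, with unadjusted p of 0.247 and 0.366. Without T1 the first of these was 0.047.

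CXCL3, another CXCR2 ligand, had 4.35, 3.05 and 3.02 CPM in RNF4 tumours with Dox, 3.56, 2.41 and 3.18 CPM under the ring mutant label and 10.7, 2.02 and 3.42 CPM without Dox. The baseline group held both its highest library (T1) and its lowest (T4). The log2 fold change of CXCL3 was -0.62 ± 0.55 for RNF4 with Dox against no Dox with 9 libraries, and 0.37 without T1. CXCL2, from the same cluster, was flatter: it had 2.58, 3.99 and 3.23 CPM in RNF4 tumours with Dox, 2.84, 2.67 and 2.27 CPM under the ring mutant label and 4.10, 2.31 and 2.59 CPM without Dox, a span of 1.81 times. The groups of CXCL2 overlapped and its log2 fold changes were 0.13 ± 0.33, 0.33 ± 0.33 and -0.20 ± 0.34 for RNF4 with Dox against no Dox, RNF4 with Dox against the ring mutant label and the ring mutant label against no Dox. Of the 50-base windows in their transcripts, 5.73% of CXCL1, 9.24% of CXCL2 and 5.26% of CXCL3 occur in another of the 3, so reads there cannot be assigned to 1 gene, and the counts at 40 to 89 reads per library for CXCL2 are the least certain.

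CCL2, the monocyte chemokine (chr17:34255218-34257203, plus strand), had 7.18, 8.11 and 4.05 CPM in RNF4 tumours with Dox, 4.74, 6.69 and 4.09 CPM under the ring mutant label and 7.18, 3.40 and 6.76 CPM without Dox. Its highest library was T5 and not T1, and the groups overlapped. The log2 fold changes of CCL2 were 0.16 ± 0.38, 0.31 ± 0.39 and -0.15 ± 0.39 in the same order of comparisons.

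Both IL-1 genes lie on chromosome 2, IL1A at 112773915-112784590 and IL1B at 112829751-112836903, on the minus strand. IL1A, whose product is active without cleavage, was the least abundant member at a mean of 1.57 TPM. It had 2.10, 0.627 and 0.579 CPM in RNF4 tumours with Dox, 1.07, 0.656 and 0.568 CPM under the ring mutant label and 2.33, 0.802 and 0.707 CPM without Dox, from 10 to 44 reads a library. T1 and T2 were again highest, and the exact 95% counting interval of T14, 0.272 to 1.04 CPM, spans all libraries other than T1, T2 and T3.

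IL1B, which needs cleavage by caspase-1, had 1.39, 3.27 and 1.90 CPM in RNF4 tumours with Dox, 3.44, 1.27 and 2.16 CPM under the ring mutant label and 6.09, 2.05 and 3.77 CPM without Dox. T1 was highest, but T2 was the second lowest library, so IL1B did not follow the pairing of T1 and T2 seen for IL1A. The log2 fold change of IL1B was -0.85 ± 0.52 for RNF4 with Dox against no Dox (unadjusted p 0.137) and -0.79 ± 0.53 for the ring mutant label against no Dox (unadjusted p 0.165). It stayed below 0 with any 1 library left out, between -1.26 and -0.40 for RNF4 with Dox against no Dox.

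IL6 and LIF signal through the shared receptor subunit gp130, encoded by IL6ST, to STAT3. IL6 (chr7:22725884-22732002, plus strand) had 2.10, 3.90 and 1.24 CPM in RNF4 tumours with Dox, 4.74, 2.67 and 1.70 CPM under the ring mutant label and 6.50, 1.28 and 4.28 CPM without Dox. T1 was highest and T13 lowest, with T4 close to it, and the groups overlapped. Its log2 fold change was -0.72 ± 0.64 for RNF4 with Dox against no Dox and kept its sign with any 1 library left out, from -1.25 to -0.19, with an unadjusted p of 0.283 in the 9 libraries. STEAP1B and AC073072.1 overlap IL6 on the other strand, and the strand setting of the counting is not given in the sources used here.

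LIF (chr22:30240447-30246851, minus strand), a cytokine known for keeping mouse embryonic stem cells undifferentiated, was the steadiest member. It had 56.9, 64.0 and 80.1 CPM in RNF4 tumours with Dox, 55.4, 66.0 and 86.7 CPM under the ring mutant label and 76.1, 53.8 and 77.2 CPM without Dox. The highest library was 1.61 times the lowest, and T14 was highest. Its log2 fold changes were -0.04 ± 0.24, -0.05 ± 0.24 and 0.0076 ± 0.24 for RNF4 with Dox against no Dox, RNF4 with Dox against the ring mutant label and the ring mutant label against no Dox. LIF-AS1 and AC004264.1 overlap it by 739 bases on the plus strand.

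PTGS2 (ENSG00000073756.7, chr1:186671791-186680427, minus strand) encodes cyclooxygenase-2, which makes the precursor of prostaglandins. It had 3.68, 4.52 and 3.43 CPM in RNF4 tumours with Dox, 0.889, 1.97 and 2.27 CPM under the ring mutant label and 13.1, 2.92 and 3.89 CPM without Dox. All 3 libraries labelled ring mutant lay below the other 6, a placement found for 147 of 18618 genes, or 0.790%. It was the only member whose groups did not overlap in a comparison. Of all tested genes, 2.32% did not overlap for RNF4 with Dox against no Dox (0.875% higher, 1.44% lower), 4.98% for RNF4 with Dox against the ring mutant label (2.71% higher, 2.27% lower) and 3.78% for the ring mutant label against no Dox (1.20% higher, 2.58% lower).

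The means of PTGS2 were 3.88 ± 0.572 CPM in RNF4 tumours with Dox, 1.71 ± 0.727 CPM under the ring mutant label and 6.65 ± 5.64 CPM without Dox (SD, n = 3 each). The log2 fold change was -1.94 ± 0.59 for the ring mutant label against no Dox, with an unadjusted p of 0.00847 and an adjusted p of 0.99996 from edgeR, so it did not pass the test over all genes. It was the 1 member at an unadjusted p under 0.05 in that direction, against 1.38% of all genes. In the test of any difference among the 3 groups PTGS2 had an unadjusted p of 0.0261, and 1.10% of all genes were under 0.05. It was 1.18 ± 0.58 for RNF4 with Dox against the ring mutant label (unadjusted p 0.0717) and -0.76 ± 0.56 for RNF4 with Dox against no Dox (unadjusted p 0.207). T1 lay far above the other baseline libraries, and without it the change of the ring mutant label against no Dox was -0.98 (unadjusted p 0.0422 from edgeR), that of RNF4 with Dox against the ring mutant label remained 1.18, and that of RNF4 with Dox against no Dox was 0.20. The authors' deposited table gives PTGS2 a log2 fold change of -1.955 for the ring mutant label against no Dox, with an adjusted p of 0.320.

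The low values rest on few reads. PTGS2 had 15, 45 and 40 reads in T3, T6 and T14, against 77 to 101 in the RNF4 tumours with Dox and 91 to 192 in those without. The upper 95% counting bound of T14 was 3.09 CPM and the lower bounds of T13 and T4 were 2.73 and 2.35 CPM (exact Clopper-Pearson, counting error only), so those libraries are not separated by their counts alone. Of the 3 libraries, T6 was the one with raised RNF4, at 1.97 CPM of PTGS2 (95% counting interval 1.44 to 2.63 CPM). T3 and T14, with RNF4 near the baseline level, had 0.889 and 2.27 CPM. With 1 library of raised RNF4 under this label, a tie between the RNF4 level and PTGS2 was not tested.

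**Figure D2:**
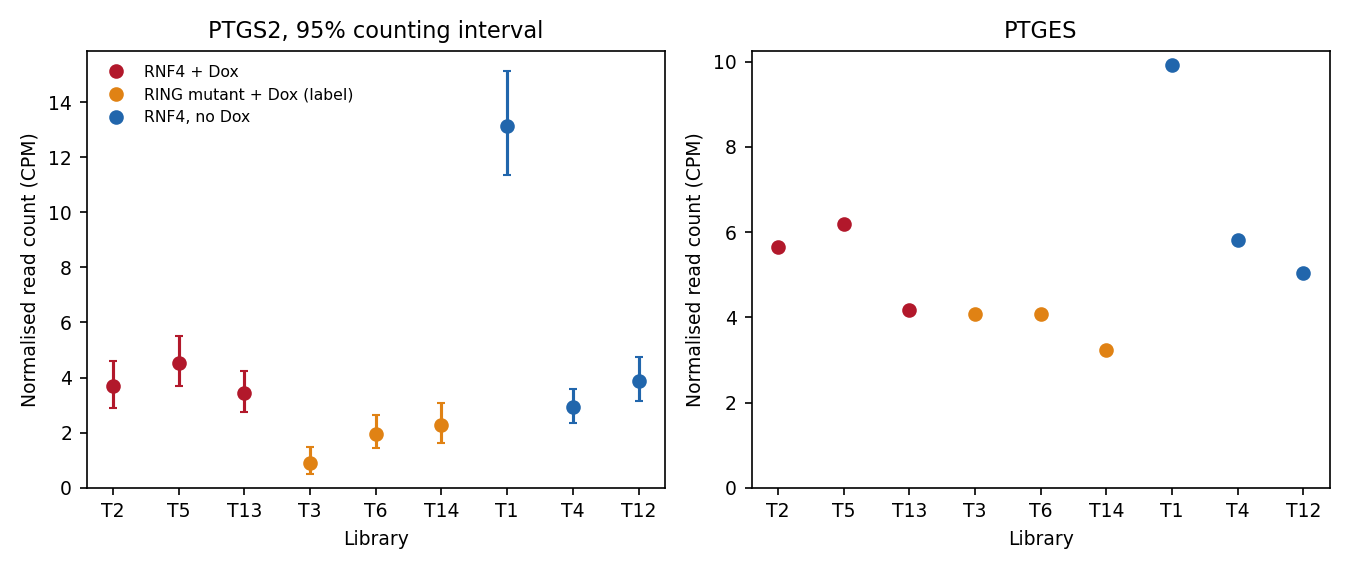
Normalised read count (CPM, linear axis from 0) of PTGS2 (left, with the exact 95% counting interval) and PTGES (right) in each library, coloured by group. The 3 libraries labelled ring mutant lie lowest in both panels, at 0.889 to 2.27 CPM for PTGS2 and 3.24 to 4.09 CPM for PTGES.

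PTGES, the inducible synthase that turns the product of PTGS2 into prostaglandin E2, had 5.64, 6.18 and 4.18 CPM in RNF4 tumours with Dox, 4.09, 4.07 and 3.24 CPM under the ring mutant label and 9.92, 5.81 and 5.03 CPM without Dox. Its ring mutant libraries too lay below the other 6, as for 0.790% of all tested genes, though T13 and T3 differed by less than 0.1 CPM. No counting interval was computed for PTGES. PTGES had a log2 fold change of -0.86 ± 0.33 for the ring mutant label against no Dox, with an unadjusted p of 0.0260 and an adjusted p of 0.99996 from edgeR, and it was -0.50 without T1. Of the 14 prostaglandin pathway genes tested, of 15 found, 12 had a log2 fold change below 0 and 2 above in that comparison. Over all 18618 genes, 10568 were below 0 and 8050 above. The median was -0.19 for the pathway against -0.039 over all genes. The baseline group includes T1, and the pathway counts without T1 are not given here. None of the 14 genes was called. PTGS1, the constitutive cyclooxygenase, had 7.94, 12.99 and 10.01 CPM in RNF4 tumours with Dox, 10.9, 6.60 and 12.2 CPM under the ring mutant label and 5.88, 13.1 and 23.5 CPM without Dox, and overlapped in all comparisons. PTGES3, a chaperone-linked synthase, was the most abundant of the list at 403 to 715 CPM.

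**Figure D3:**
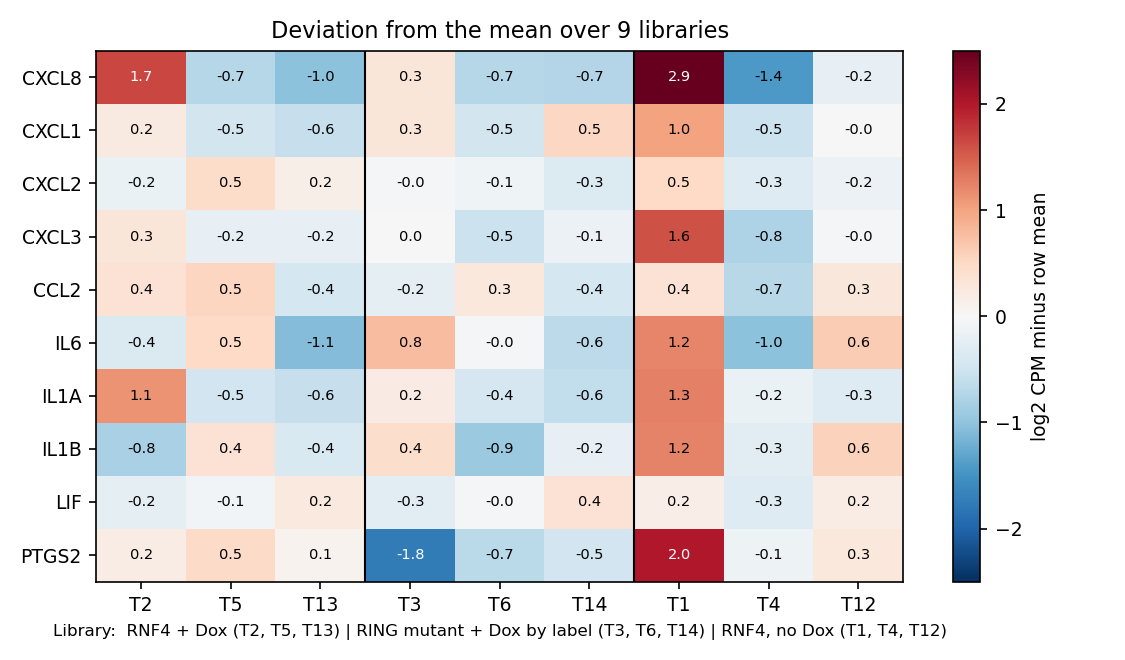
Log2 CPM of each gene minus its mean over the 9 libraries (colour scale and printed value), with libraries in columns by group. On this scale T1 is above the row mean for all 10 genes and by 2.9 for CXCL8, and T3 is lowest for PTGS2 at -1.8. By TPM, T1 was below the mean of the 9 libraries for CXCL2 (5.62 against 6.81), CCL2 (7.43 against 10.1) and LIF (39.4 against 60.2).

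Across the 10 genes the mean deviation from each gene's average was 0.23, 0.04 and -0.38 on the log2 scale in RNF4 tumours with Dox (T2, T5, T13), -0.03, -0.37 and -0.27 under the ring mutant label (T3, T6, T14) and 1.22, -0.57 and 0.12 without Dox (T1, T4, T12). The baseline group held the highest and the lowest library. The median log2 fold change of the 10 genes was -0.57 for RNF4 with Dox against no Dox (2 above 0, 8 below), 0.25 for RNF4 with Dox against the ring mutant label (6 above, 4 below) and -0.55 for the ring mutant label against no Dox (1 above, 9 below). Over all genes the medians were -0.026, 0.032 and -0.039. Without T1 the members' medians against the baseline were 0.28 for RNF4 with Dox and 0.094 for the ring mutant label. Both comparisons against no Dox share the baseline libraries, T1 among them, so their like signs are not separate observations.

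**Figure D4:**
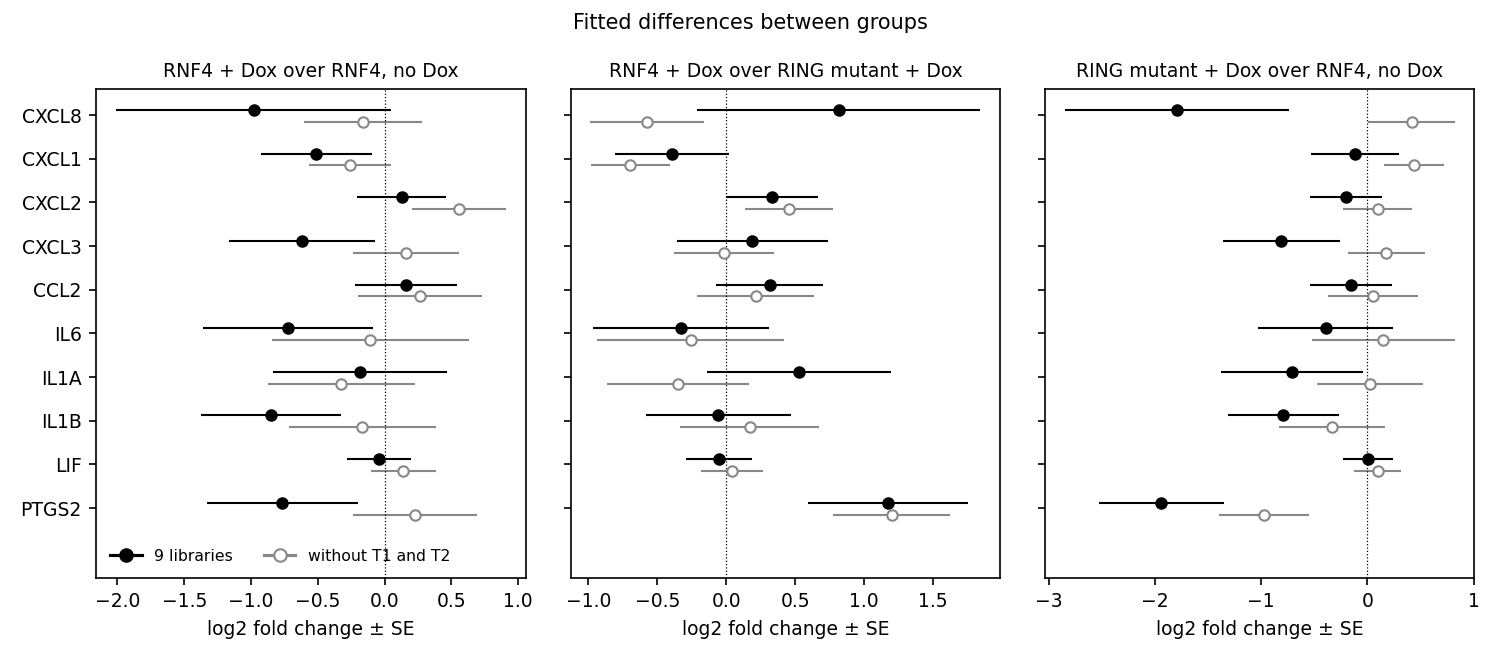
Fitted log2 fold change with its standard error for each gene in the 3 comparisons, from 9 libraries (filled) and without T1 and T2 (open). In the right panel CXCL8 lies at -1.80 with 9 libraries and at 0.42 without T1 and T2, while PTGS2 stays below 0 in both, at -1.94 and -0.97.

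Of 21 other chemokines listed, 18 were found and 6 passed the filter, and none was called. CXCL14 (38.6 to 71.7 CPM) and CCL28 (23.8 to 58.3 CPM) were the most abundant, followed by CXCL16 (4.99 to 8.70 CPM). Of 21 other cytokines, 14 were tested and none was called. IL11, a gp130 cytokine, was the most abundant of them, at 129, 117 and 135 CPM in RNF4 tumours with Dox, 224, 231 and 143 CPM under the ring mutant label and 545, 178 and 134 CPM without Dox. All 3 RNF4 libraries with Dox lay below all 3 under the ring mutant label, with T13 and T14 closest, and the baseline group overlapped both. This placement held for 4 of the 14 tested cytokines (IL11, IL10, TNFSF15 and CLCF1), against 2.27% of all tested genes. The 4 were read from the same libraries and are not separate observations.

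The log2 fold change of IL11 was -1.17 ± 0.47 for RNF4 with Dox against no Dox (unadjusted p 0.0330, adjusted p 0.99998, edgeR), and -0.29 without T1. IL10, an anti-inflammatory cytokine, was at 0.574, 0.493 and 0.496 CPM in RNF4 tumours with Dox, 0.711, 0.787 and 1.14 CPM under the ring mutant label and 2.19, 0.995 and 0.943 CPM without Dox. Its RNF4 libraries with Dox were below all others, a placement of 0.440% of all tested genes, on 11 to 32 reads a library. IL10 had a log2 fold change of -1.37 ± 0.46 against no Dox (unadjusted p 0.0137, adjusted p 0.99998, edgeR), at a level near 1 CPM, and of -0.88 without T1. TNFSF15, a TNF family ligand, was at 0.670, 0.448 and 0.248 CPM in RNF4 tumours with Dox, 0.948, 1.22 and 0.966 CPM under the ring mutant label and 0.547, 0.417 and 0.629 CPM without Dox, on 6 to 28 reads a library. The ring mutant libraries lay above the other 6, as for 0.354% of all tested genes. TNFSF15 had a log2 fold change of -1.20 ± 0.45 for RNF4 with Dox against the ring mutant label (unadjusted p 0.0249, adjusted p 0.99988, edgeR) and of 0.98 for the ring mutant label against no Dox.

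Of 15 receptor genes for the members' products, 8 were tested and none was called. IL6ST (142 to 210 CPM), IL1RAP, the accessory chain of the IL-1 receptor (15.4 to 27.4 CPM), and LIFR (9.58 to 22.6 CPM) were the most abundant, whereas CXCR2 was at most 0.568 CPM. Of the 9 NF-kB subunit and kinase genes found, all 9 were tested, none was called and the log2 fold changes lay between -0.33 and 0.30 in the 3 comparisons. RELA, the p65 subunit, was at 90.7, 151 and 112 CPM in RNF4 tumours with Dox and 131, 113 and 110 CPM under the ring mutant label. Without Dox it was at 80.8, 135 and 121 CPM. RELA was lowest in T1 and T2, as were NFKB2 (66.2 and 68.2 CPM) and BCL3 (12.1 and 11.5 CPM). CHUK, a kinase gene of the list, was highest there, at 80.7 CPM in T1 and 76.9 CPM in T2. Of the 19 NF-kB feedback and target genes tested, none was called. They did not share 1 pattern. The most abundant were TNIP1 (108 to 233 CPM) and TNFAIP2 (65.6 to 173 CPM), both lowest in T1, and BIRC2, an inhibitor of apoptosis, which was highest in T1 (169 CPM) and T2 (160 CPM), against 73.4 to 130 CPM in the others. T1 and T2 were also highest for BIRC3, its close relative, at 59.3 CPM in T1 and 39.7 CPM in T2 (next 29.4 CPM). The same held for TNFAIP6, at 7.05 CPM in T1 and 7.89 CPM in T2 (next 5.27 CPM). No other gene of the list had this placement, against 23.0% of all tested genes with T1 and T2 above the other 7 libraries. NFKBIA, the inhibitor induced by NF-kB, was the flattest of the list, between 44.6 and 59.8 CPM.

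The 14 C/EBP and AP-1 factor genes, the 16 genes of the gp130 and STAT3 pathway, the 16 genes of IL-1 processing and the 11 AU-rich decay factors tested also held no called gene. FOSL1, an AP-1 subunit, was at 232 to 463 CPM, and STAT3 at 62.8 to 114 CPM. SOCS3, the feedback inhibitor induced by STAT3, was at 27.6, 35.2 and 38.0 CPM in RNF4 tumours with Dox, 36.6, 33.4 and 43.0 CPM under the ring mutant label and 22.9, 37.3 and 38.7 CPM without Dox. ZFP36, which destabilises AU-rich transcripts, was at 15.9 to 26 CPM.

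By Pearson correlation of log2 CPM over the 9 libraries, among 9900 genes with a mean of at least 10 CPM, the 5 genes most like CXCL8 were SLC25A14, CHASERR, MMP1, C17orf75 and TFB1M, at 0.98 each. T1 and T2 are among the points of each correlation, and without them it was 0.80 to 0.88. MMP1, the interstitial collagenase, had 83.0, 17.6 and 18.1 CPM in RNF4 tumours with Dox, 48.3, 21.3 and 20.7 CPM under the ring mutant label and 128, 14.5 and 20.5 CPM without Dox, with T1, T2 and T3 highest as for CXCL8. The genes most like the members' mean were RRAGB (0.96), SDHAF1 (0.95), GLIPR1 (0.94), CHASERR (0.94) and PHPT1 (0.93). Without T1 and T2 their correlations were 0.89, 0.72, 0.66, 0.74 and 0.82. These correlations are descriptions and carry no test.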

How the data were processed

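Poly(A) RNA from A375 xenografts was sequenced as directional libraries made from 800 ng of RNA, read as 50-base single reads, per the labels' protocols. TopHat2 2.0.13, HTSeq 0.6.0, DESeq2 1.10.1 and the build GRCh38 are named in the submitters' processing notes, and the annotation release and the strand setting of counting are not given in the sources used here. The deposited tables hold raw read counts per gene, fold changes on the log2 scale and p-values by the authors, and 27 normalised columns that were not used.

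The 9 count columns were mapped to groups by their names. A column could not be tied to 1 sample, so replicates have no number shared with the labels. Nothing in the labels says that libraries came from separate cultures, so p-values measure the spread between these pools of tumours. No libraries of a group agreed within sampling noise. Genes were kept with filterByExpr (18618), scaled with TMM, and tested with edgeR 4.0.16 (glmQLFit, glmQLFTest) across 9 libraries in 3 groups. Benjamini-Hochberg adjustment covered all genes at 0.05. CPM are TMM-scaled and log2 values use a prior count of 2. TPM were computed from exon lengths of GENCODE 29. R 4.3.3, DESeq2 1.42.0 and limma 3.58.1 gave alternatives, as did RLE scaling, other filters and leaving libraries out. The fit was tested on simulated data.

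The members and gene lists were chosen with earlier results of these data known. Named genes are the members, RNF4, the most abundant and the lowest-p genes of each list, and genes most like CXCL8 or the members' mean. BIRC3, CD68, CD74, CSF1R, CXCR2, FCGR3B, LTF, LYZ, MLANA, NFKBIA, PTGS1, PTPRC, S100A9, SOCS3, TNFAIP6, TYR and ZFP36 were named after their values were seen. The same holds for BCL3, CHUK, CSF3R, ELANE, FCER1G, FPR1, ITGB2, MMP8, NFKB2, S100A8, SPI1 and TYROBP. Promoter sequences are RefSeq's (GRCh38.p14), matched for 8 of 10 members.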

Additional observations from a re-analysis of the deposited data

How the results depend on the processing

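No member was called under any alternative. Of 30 fold changes of the members, 6 kept their direction under every alternative, and 234 of 270 values under other settings and 237 of 270 with 1 library left out kept it. With no filter on low counts 3, 38 and 109 genes of all genes were called for RNF4 with Dox against no Dox, RNF4 with Dox against the ring mutant label and the ring mutant label against no Dox, against 0 in each; with DESeq2 3, 1 and 4 were called, without T1 and T2 1 was called for the ring mutant label against no Dox, and with 1 library left out 0 to 1 for RNF4 with Dox against no Dox. Without T1 and T2 the members' median log2 fold change was 0.016 for RNF4 with Dox against no Dox and 0.098 for the ring mutant label against no Dox.

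Fold changes that changed sign are given on the log2 scale. Without T1 and T2 they were for RNF4 with Dox against no Dox CXCL3 at 0.16, LIF at 0.14 and PTGS2 at 0.23, then for RNF4 with Dox against the ring mutant label CXCL8 at -0.58, CXCL3 at -0.019, IL1A at -0.35, IL1B at 0.17 and LIF at 0.041, then for the ring mutant label against no Dox CXCL8 at 0.42, CXCL1 at 0.44, CXCL2 at 0.10, CXCL3 at 0.18, CCL2 at 0.052, IL6 at 0.15 and IL1A at 0.027. With limma voom and sample quality weights they were for RNF4 with Dox against no Dox CXCL3 at 0.034, CCL2 at -0.0064, LIF at 0.057 and PTGS2 at 0.0036, then for RNF4 with Dox against the ring mutant label CXCL8 at -0.12, CCL2 at -0.18, IL1A at -0.066, IL1B at 0.51 and LIF at 0.12, then for the ring mutant label against no Dox CXCL2 at 0.052, CCL2 at 0.17 and LIF at -0.064. Without T3 and T14, which leaves 1 ring mutant library assumed to vary like the others, they were for RNF4 with Dox against the ring mutant label CXCL1 at 0.24, CCL2 at -0.060, IL1B at 0.78 and LIF at 0.014, then for the ring mutant label against no Dox CCL2 at 0.23 and LIF at -0.054. With only the 6 libraries compared, LIF was at -0.0036 for the ring mutant label against no Dox. The cause was not tested.

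Column numbers run in 3 neighbouring sets, which no label ties to a batch, and deviations of same-set libraries correlated between 0.0004 and 0.67, so the sets were not taken as pairs. A fit with these sets as a replicate block turned the sign of IL1B to 0.090 for RNF4 with Dox against the ring mutant label and of LIF to -0.0047 for the ring mutant label against no Dox.

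Ranges with 1 library left out are given for results that changed sign. For RNF4 with Dox against no Dox it was -0.11 to 0.41 for CCL2, -0.81 to 0.047 for CXCL1, -0.041 to 0.42 for CXCL2, -1.02 to 0.37 for CXCL3, -2.36 to 1.24 for CXCL8, -1.05 to 0.55 for IL1A, -0.19 to 0.059 for LIF and -1.12 to 0.20 for PTGS2. For RNF4 with Dox against the ring mutant label it was -0.0057 to 0.32 for CXCL3, -0.56 to 1.24 for CXCL8, -0.33 to 0.84 for IL1A, -0.47 to 0.36 for IL1B, -0.86 to 0.14 for IL6 and -0.19 to 0.14 for LIF. For the ring mutant label against no Dox it was -0.43 to 0.049 for CCL2, -0.41 to 0.43 for CXCL1, -0.36 to 0.10 for CXCL2, -1.21 to 0.18 for CXCL3, -2.32 to 0.41 for CXCL8, -1.02 to 0.022 for IL1A, -0.86 to 0.15 for IL6 and -0.18 to 0.14 for LIF. The 5 members under 10 CPM in every library (CXCL2, CCL2, IL6, IL1A and IL1B) rest on 10 to 181 reads a library. CXCL3 rests on 55 to 157 and PTGS2 on 15 to 192.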
